A study of Mus musculus with 48 samples.

Results

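The proteasome subunit genes examined here were those whose symbol begins with Psm, a letter from a to g and a digit, and which were listed in both assays with a median of at least 0.5 RPKM in each. The rule found 45 genes among the 12423 listed in both assays, and all 45 were among the 11863 genes that passed this filter on low values. Another 9 symbols of the same form (Psmd8, Psmg4, Psma8, Psmb11, Psme2b and 4 pseudogenes of Psmb5, Psmb6 and Psmb7) were not analysed here. Psmc3ip fits the letters of the rule, but its product acts in meiotic recombination and is not a proteasome subunit, so it was counted with the 45 genes and kept out of the complexes. The data were kidneys of male C57BL/6JRj mice aged 11 to 12 weeks, kept for 2 weeks under 12 h of light and 12 h of dark with free access to food and killed every 2 h from ZT00 (lights on) to ZT22, with lights off at ZT12. The labels name no mutation or treatment, and the groups are the times of day. Each of the 12 timepoints had 2 replicate pools, each made from the lysates of 2 mice, and each pool gave 1 RNA-seq library (transcript abundance) and 1 RPF-seq library (ribosome-protected fragments, a measure of translation).

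The proteasome is the main protease of the cytosol and nucleus and degrades proteins that carry ubiquitin chains. Its core particle is a barrel of stacked rings, in which alpha subunits (Psma genes) form the outer rings and gate the entry, and beta subunits (Psmb genes) form the inner rings and hold the catalytic sites. A regulatory particle (Psmc and Psmd genes) caps the barrel, binds ubiquitin chains, removes them and unfolds the substrate with a ring of ATPases. Each core holds a pair of copies of every alpha and beta subunit, and each regulatory particle holds 1 copy of each of its own.

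Depth was recovered from the whole-read steps in the RPKM values and ran from 9.83 to 33.5 M (mega) reads in RNA-seq and from 15.5 to 34.9 M reads in RPF-seq. It moved with the time of day. The median was 18.7 M reads in the light phase and 13.4 M reads in the dark phase in RNA-seq, and 26.0 and 21.1 M reads in RPF-seq. The RPF-seq library of ZT04 replicate 2 stood apart, with 162 genes at 0 against 23 in the next library. All 8 kidney markers examined were present, with the summed RNA level between 6380 and 8068 RPKM, among them Umod of the thick ascending limb and Slc34a1 of the proximal tubule. The markers of neighbouring tissue that were listed, Alb of liver and Adipoq of fat, summed to between 5.96 and 26.3 RPKM. Both had a 24-h component in RNA-seq, Adipoq of 3.58-fold with a peak at ZT4.0 (adjusted p = 0.0102) and Alb of 1.83-fold with a peak at ZT23.8 (adjusted p = 0.0365), and their part in the curves below was not tested. Among the 45 genes the number of reads behind a value was lowest for Psmc3ip, with a median of 53 reads per RNA-seq library and 92 per RPF-seq library, and reached 7893 for Psme4 in RNA-seq and 6561 for Psmd2 in RPF-seq.

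The first question was how evenly the subunits of the complex were transcribed and translated. Core subunits stood above regulatory subunits in both assays, and the gap was wider at the level of footprints. Over the 14 core and 16 regulatory subunits measured, the mean log2 RNA level of the core exceeded that of the regulatory particle by 0.70 ± 0.06 (SD over 24 pools), a ratio of 1.62, and the pools ranged from 1.49 to 1.79. In RPF-seq the difference was 1.02 ± 0.05, a ratio of 2.03, with pools between 1.86 and 2.25. The RPF-seq difference exceeded the RNA-seq difference in 24 of 24 pools. With every Psma and Psmb gene set against every Psmc and Psmd gene (Psmc3ip apart), so that the scarce immunoproteasome subunits and the assembly chaperones entered the means, the log2 differences were 0.29 and 0.57.

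**Figure D1:**
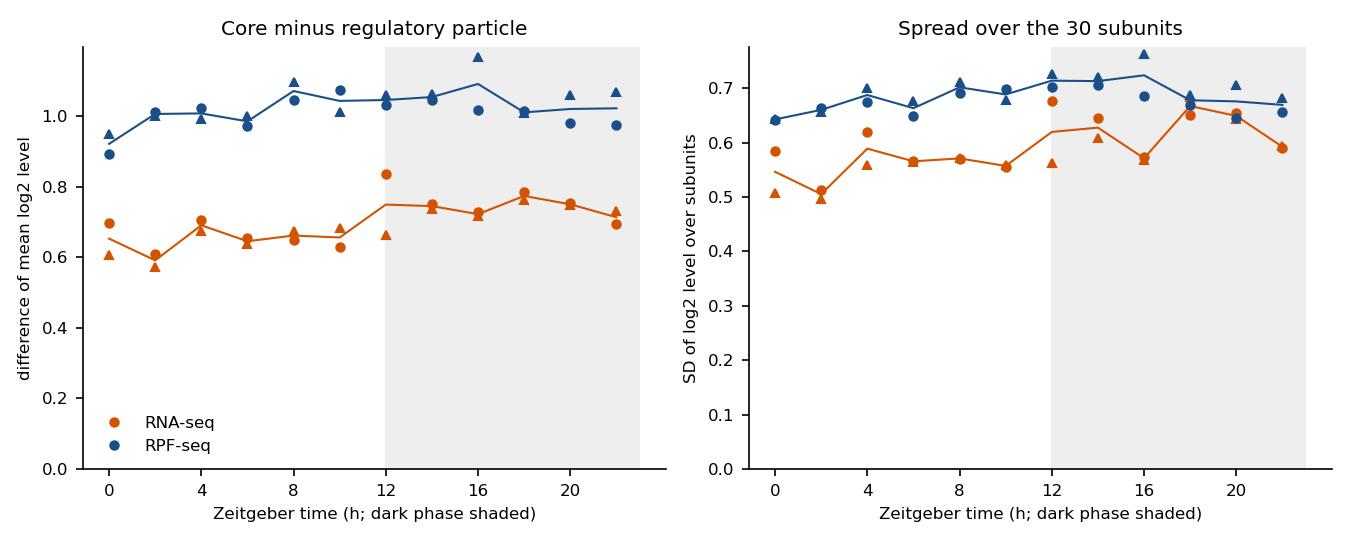
Left, the mean log2 level of the 14 core subunits minus that of the 16 regulatory subunits in each pool, by Zeitgeber time, in RNA-seq (orange) and RPF-seq (blue). Right, the SD of the log2 level over the 30 subunits. Circles are replicate 1, triangles replicate 2 and lines the mean of both. The RPF-seq difference averaged 1.02 and the RNA-seq difference 0.70, with no overlap between the assays.

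The spread of levels over the 30 subunits was not narrower among footprints than among transcripts. The SD of log2 levels over the subunits averaged 0.59 ± 0.05 in RNA-seq and 0.68 ± 0.03 in RPF-seq, and it was smaller in RPF-seq in 1 of 24 pools. Within the core alone it was 0.49 in RNA-seq and 0.44 in RPF-seq, and within the regulatory particle it was 0.47 in both. For scale, the 8 subunits of the cytosolic chaperonin, another ring complex, varied with an SD of 0.22 among transcripts and 0.26 among footprints, and the 9 subunits of the COP9 signalosome, a relative of the lid, had 1.08 and 1.41. These last values rest on Cops7b, a scarce copy of Cops7a, and without it, a choice made after seeing the data, they were 0.41 and 0.42, below those of the proteasome, whose own scarce variants Psmb8 to Psmb10 are not among the 30. Over the 30 proteasome subunits, mean RNA and RPF levels correlated with Pearson's r = 0.87, a description over genes that share libraries, whereas RNA level and TE had r = 0.03.

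Translation efficiency (TE) was the ratio of RPF to RNA level in the same pool, and it was set against the median gene of that pool. TE was at least 1.5-fold above the median gene (adjusted p under 0.05, limma) for 25 of the 45 genes, against 20.6% of all genes, and at least 1.5-fold below it for 1, Psme4, against 26% of all genes. The median of the 45 genes was 1.57-fold above the median gene, and 43 of 45 lay above it. In the core 11 of 14 subunits passed, with a median of 1.73-fold, and in the regulatory particle 6 of 16 passed, with a median of 1.31-fold. Coding sequences were shorter in the core (606 to 834 nt) than in the regulatory particle (933 to 2862 nt), and over the 30 subunits log coding length and TE had r = -0.63. The part of length in the TE of these subunits was not tested.

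**Figure D2:**
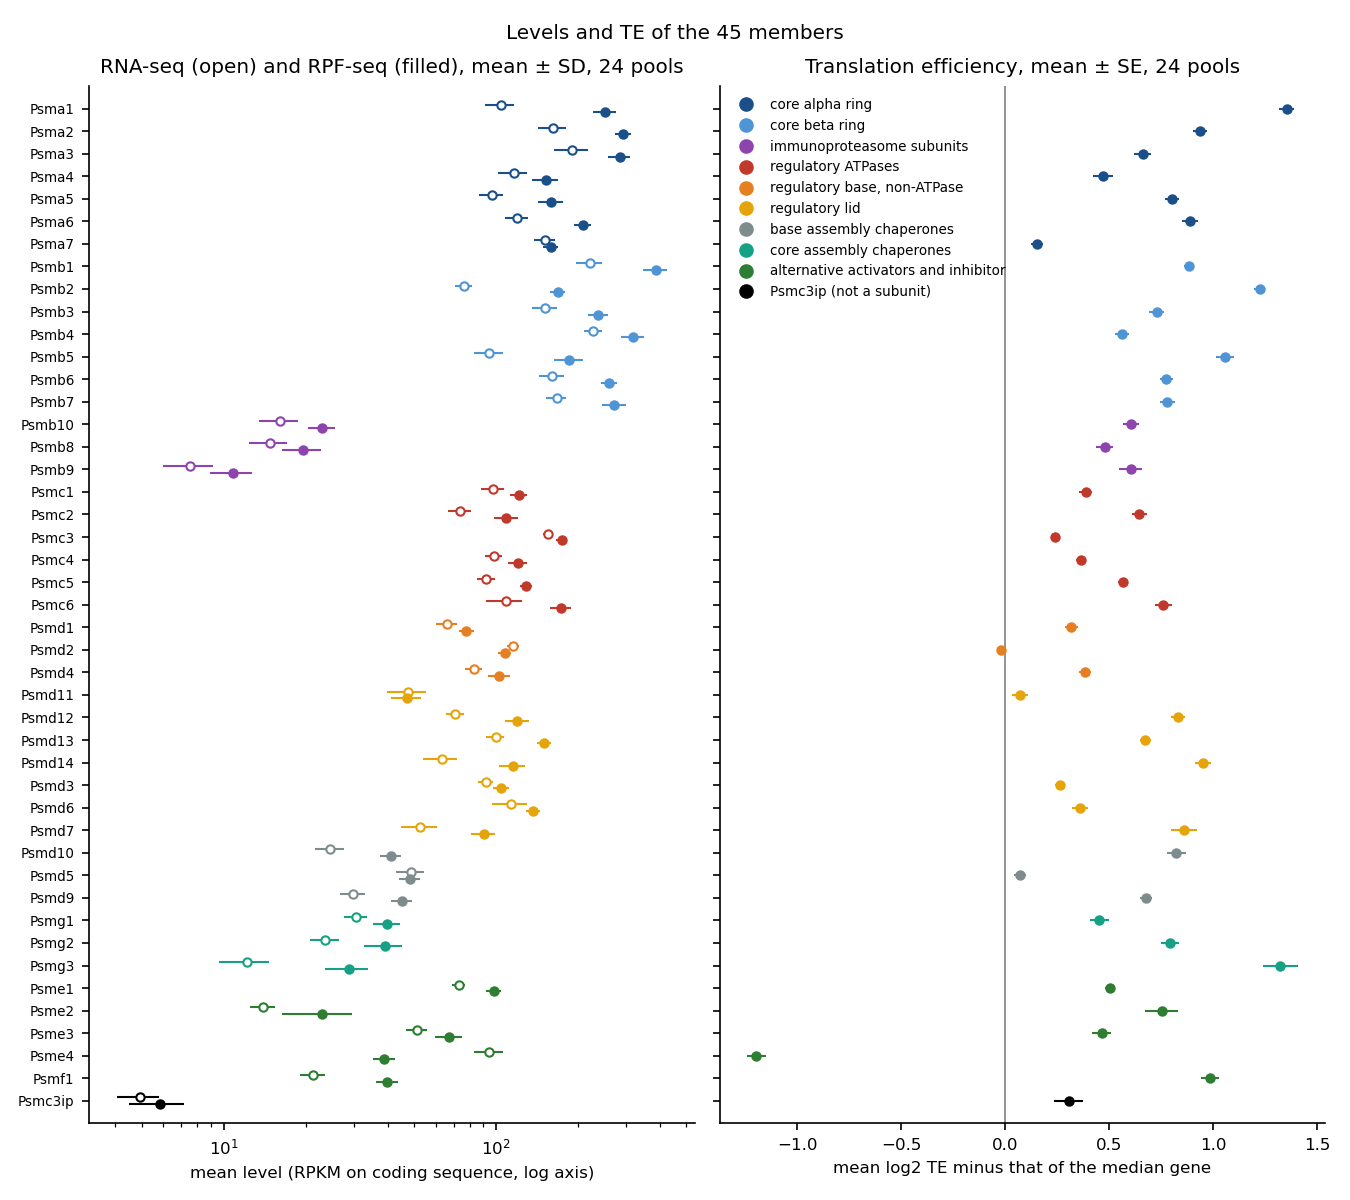
Left, mean level of each of the 45 genes in RPKM on a log axis, RNA-seq in open and RPF-seq in filled circles, with the SD over 24 pools. Right, mean log2 TE minus that of the median gene, with the SE over 24 pools. Colours mark the role. Psma1 had the highest TE and Psme4 the lowest, and each immunoproteasome subunit (7.54 to 16.1 RPKM in RNA-seq) lay far below its constitutive counterpart (94.4 to 167 RPKM).

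The alpha ring was among the most abundant groups. Because the strand used in counting is not known, reads may be shared where another gene overlaps, as for Psmd1 (Gm21972, same strand), Psmc3 (Slc39a13, opposite strand) and Psmb7 (Nek6, opposite strand), and those levels are uncertain to that extent. Values that follow are means ± SD over the 24 pools, the timepoints included, in RPKM on the coding sequence, which is a level per length. Psma1 stood at 104 ± 12.8 RPKM in RNA-seq and 252 ± 23.98 RPKM in RPF-seq, and its TE of 2.44 ± 0.301 was the highest of the 45 genes relative to the median gene (2.56-fold, adjusted p = 5.98e-23). Psma2 reached 162 ± 19.2 RPKM in RNA-seq and 294 ± 20.9 RPKM in RPF-seq (TE 1.83 ± 0.203). Psma3 was the most abundant alpha transcript at 191 ± 27.4 RPKM, with 285 ± 26.8 RPKM in RPF-seq (TE 1.51 ± 0.193). The remaining alpha subunits were lower in footprints. Psma4 had 116 ± 14.1 RPKM in RNA-seq and 152 ± 17.2 RPKM in RPF-seq (TE 1.33 ± 0.210). Psma5 had 96.4 ± 9.58 and 159.5 ± 16.9 RPKM (TE 1.66 ± 0.172), and Psma6 had 119 ± 11.4 and 209 ± 15.1 RPKM (TE 1.77 ± 0.222), in the same order of assays. Psma7 stood out with nearly equal levels in both assays, 151 ± 13.2 RPKM in RNA-seq and 159 ± 10.1 RPKM in RPF-seq, and the lowest TE of the ring (1.06 ± 0.102).

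In the beta ring, Psmb1 and Psmb4, structural subunits without a catalytic site, were the most abundant. Psmb1 had 221 ± 23.9 RPKM in RNA-seq and 387 ± 38.4 RPKM in RPF-seq (TE 1.75 ± 0.133), and Psmb4 had 227 ± 17.3 and 319 ± 30.3 RPKM (TE 1.41 ± 0.182). Psmb2, also non-catalytic, combined the lowest RNA level of the core, 76.3 ± 5.31 RPKM, with 169 ± 10.7 RPKM in RPF-seq and a TE of 2.22 ± 0.159, 2.34-fold above the median gene (adjusted p = 1.35e-25). Psmb3 lay in between at 152 ± 16.4 and 238 ± 20.2 RPKM (TE 1.58 ± 0.212). The catalytic subunits differed from each other. Psmb5, which carries the chymotrypsin-like site, had 94.4 ± 11.6 RPKM in RNA-seq and 186 ± 22.3 RPKM in RPF-seq (TE 1.99 ± 0.276). Psmb6, the caspase-like subunit, had 161 ± 17.4 and 261 ± 17.8 RPKM (TE 1.63 ± 0.174), and Psmb7, the trypsin-like subunit, had 167 ± 13.99 and 272 ± 26.8 RPKM (TE 1.64 ± 0.220).

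In immune cells, and in other cells exposed to interferon, these 3 catalytic subunits are replaced by the immunoproteasome subunits Psmb8 (for Psmb5), Psmb9 (for Psmb6) and Psmb10 (for Psmb7). In kidney they were scarce. Psmb8 (GRCm38 chr17:34197721-34201454) had 14.8 ± 2.37 RPKM in RNA-seq and 19.6 ± 3.15 RPKM in RPF-seq (TE 1.34 ± 0.193). Psmb9 (GRCm38 chr17:34181987-34187764), its neighbour on the chromosome, had 7.54 ± 1.56 and 10.8 ± 1.89 RPKM (TE 1.48 ± 0.309). Psmb10 had 16.1 ± 2.63 and 23.1 ± 2.60 RPKM (TE 1.46 ± 0.203). In these bulk libraries, fewer cells with a transcript and less of it per cell cannot be told apart. Of 10 immune cell markers examined 7 were measured, the macrophage marker Cd68 at 1.94 RPKM and the antigen presentation gene Cd74 at 202 RPKM in RNA-seq among them, and their part in the immunoproteasome levels was not tested.

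The ATPases Psmc1 to Psmc6 form the ring that unfolds substrates. Psmc3 was the most abundant regulatory subunit in both assays, with 156 ± 6.76 RPKM in RNA-seq and 174 ± 7.48 RPKM in RPF-seq (TE 1.12 ± 0.0635). Psmc1 had 97.95 ± 9.57 and 121 ± 8.61 RPKM (TE 1.25 ± 0.121). Psmc2 had 73.7 ± 7.04 and 109 ± 10.8 RPKM (TE 1.49 ± 0.190). The mean TE of the next, Psmc4, differed from that of Psmc1 by less than the SD of either. Psmc4 had 98.4 ± 6.92 and 120.1 ± 9.79 RPKM (TE 1.22 ± 0.0973), and Psmc5 had 92.02 ± 7.13 and 129 ± 6.88 RPKM (TE 1.41 ± 0.0858). Psmc6 had the highest TE of the ring, 1.62 ± 0.217, at 108 ± 16.2 RPKM in RNA-seq and 173 ± 14.9 RPKM in RPF-seq. Among the scaffold subunits of the base, Psmd1 had 66.1 ± 6.11 and 77.95 ± 5.04 RPKM (TE 1.19 ± 0.126), and Psmd2 had 116 ± 6.00 and 108 ± 6.12 RPKM. The TE of Psmd2, 0.934 ± 0.0453, was the second lowest of the 45 genes and was 0.99-fold that of the median gene, a difference that missed the threshold (adjusted p = 0.292). Psmd4, a receptor for ubiquitin chains, had 82.96 ± 6.17 and 103 ± 9.66 RPKM (TE 1.24 ± 0.120).

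The lid removes ubiquitin through Psmd14, the deubiquitinase of the particle, which had 63.1 ± 9.05 RPKM in RNA-seq and 115 ± 12.4 RPKM in RPF-seq and the highest TE of the regulatory particle (1.85 ± 0.232). The lid subunits varied widely. Psmd11 (GRCm38 chr11:80428615-80473248) was the least abundant of the 30 subunits in both assays, 47.5 ± 7.74 and 47.1 ± 5.79 RPKM, with a TE of 1.00 ± 0.131. Psmd3 had 91.8 ± 5.86 and 104 ± 6.89 RPKM (TE 1.14 ± 0.0793), and Psmd6 had 114 ± 16.9 and 137 ± 8.55 RPKM (TE 1.23 ± 0.156). Psmd7 had 52.7 ± 8.10 and 90.2 ± 9.01 RPKM (TE 1.76 ± 0.397). Psmd12 and Psmd13 had higher mean TE than Psmd3, Psmd6 and Psmd11. Psmd12 had 71.03 ± 5.52 and 120.0 ± 12.1 RPKM (TE 1.70 ± 0.185), and Psmd13 had 99.7 ± 7.52 and 151 ± 9.43 RPKM (TE 1.52 ± 0.139).

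The assembly factors among the 45 genes had lower RNA levels than most subunits of the proteasome. Pomp, an assembly factor outside the 45, is given below. The chaperones of base assembly were Psmd5 with 48.8 ± 5.79 RPKM in RNA-seq and 48.4 ± 4.26 RPKM in RPF-seq (TE 0.999 ± 0.0918), Psmd9 with 29.9 ± 3.17 and 45.2 ± 3.92 RPKM (TE 1.52 ± 0.138) and Psmd10 with 24.6 ± 2.97 and 41.2 ± 3.71 RPKM (TE 1.70 ± 0.255). Psmd5 had the third lowest TE of the 45 genes, 1.05-fold above the median gene (adjusted p = 0.022). Of the chaperones of core assembly, Psmg1 had 30.6 ± 2.94 and 39.8 ± 4.54 RPKM (TE 1.31 ± 0.206) and Psmg2 had 23.6 ± 2.86 and 39.1 ± 6.25 RPKM (TE 1.66 ± 0.254). Psmg3 was the scarcest of them, 12.2 ± 2.53 and 28.8 ± 5.14 RPKM. Its TE of 2.49 ± 0.828 ranked the second highest of the 45 genes relative to the median gene (2.50-fold above the median gene, adjusted p = 1.71e-14). This rank is uncertain, since the TE rests on a median of 70 reads per RNA-seq library and ran from 1.49 to 5.20 over the pools. Gm26938 also overlaps Psmg3 on the same strand. Psmc3ip, the gene outside the complex, had 4.91 ± 0.866 and 5.83 ± 1.32 RPKM (TE 1.21 ± 0.311).

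Other caps can take the place of the regulatory particle. Psme1 and Psme2 form the interferon-inducible PA28 cap, and they differed in level, with 73.04 ± 4.08 RPKM in RNA-seq and 98.2 ± 6.57 RPKM in RPF-seq for Psme1 (TE 1.35 ± 0.103) and 13.96 ± 1.43 and 23.1 ± 6.60 RPKM for Psme2 (TE 1.66 ± 0.487). Psme3, the nuclear cap subunit, had 51.3 ± 4.37 and 67.3 ± 7.70 RPKM (TE 1.32 ± 0.184). Psme4 (GRCm38 chr11:30771726-30880361) encodes PA200, a large single-chain cap, and stood apart from all the others. Its transcript reached 94.7 ± 11.8 RPKM, close to the core subunit Psmb5, but its footprints only 38.9 ± 3.54 RPKM, a TE of 0.417 ± 0.0624 and 0.44-fold that of the median gene (adjusted p = 4.58e-20). Its TE ranged from 0.314 to 0.553 (median 0.399) over the 24 pools. Psmf1 encodes PI31, an inhibitor of the core in vitro, and had 21.3 ± 2.21 and 39.9 ± 3.69 RPKM (TE 1.90 ± 0.297).

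Transcription of proteasome genes is known to be induced by Nfe2l1 through antioxidant response elements when proteasome activity falls short. RefSeq promoters on GRCm38.p6 were matched for 38 of the 45 genes (41 promoters), and the 250 bases before each start were searched on both strands for the core of this element, TGACNNNGC. It was found in 12.2% of these promoters and in 11.6% of the 11966 promoters of genes tested, so its share was near that of all promoters. The CCAAT box (CCAAT) was in 34.1% against 34.6%, and the E-box bound by the circadian clock factors (CACGTG) in 9.76% against 8.37%. The stretches with a match to the antioxidant response element are shown because they include the catalytic subunits Psmb5 and Psmb6 and the named genes Psmc6 and Psmd12. They are written along the strand of the gene, with the match in capitals, and in Psmc6 and Psmd12 the match is on the opposite strand, so that its reverse complement is read.
Psmb5 (minus strand, chr14:54618024-54618052): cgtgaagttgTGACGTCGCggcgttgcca
Psmb6 (plus strand, chr11:70525338-70525356): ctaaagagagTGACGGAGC
Psmc6 (plus strand, chr14:45329587-45329615): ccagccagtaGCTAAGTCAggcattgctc
Psmd12 (plus strand, chr11:107479278-107479299): tctGCTGTGTCAcatttgcccc
Psmd9 (plus strand, chr5:123228149-123228177): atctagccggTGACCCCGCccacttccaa
The match began 47 bases before the start of Psmb5, 9 before that of Psmb6 and 31 before that of Psmd9, whereas in Psmc6 and Psmd12 it lay 227 and 247 bases before it.

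The second question was whether subunit transcripts varied over the day. The curves were shallow, and most of those called peaked in the dark phase. A 24-h component, that is a 24-h cosine and sine curve with an adjusted p under 0.05 in limma, was found in RNA-seq for 26 of the 45 genes, or 57.8%, against 48.6% of all genes. None of the 45 reached a fitted peak-to-trough fold of 1.5, a size that 10.2% of all genes reached with a 24-h component. The median fold was 1.17 among the 45 and 1.21 among all genes. The peak lay in the dark phase for 18 of the 45 genes (22.7% of all genes) and in the light phase for 8 (25.9% of all genes). The peaks fitted to each replicate alone lay within 4 h of each other for 26 of these 26 genes, with a median gap of 1.3 h. The genes were selected by a fit to both replicates, which favours such agreement, so it is no separate test of the calls. The excess over all genes depended on the model. With library depth as a covariate 18 of the 45 genes (40.0%) were called against 42.2% of all genes, and with a 12-h term added 17 (37.8%) against 46.6%. Quantile normalisation gave 21 (46.7%) against 46.6%, and the timepoints as 12 separate levels in place of a curve gave 13 (28.9%) against 31.0%. With replicate 1 left out, 2 of the 45 genes (4.44%), Psmd5 and Psmd6, had a 24-h component against 10.1% of all genes. With replicate 2 left out 20 (44.4%) did against 34.9%, and 13 of these 20 were among the 26.

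**Figure D3:**
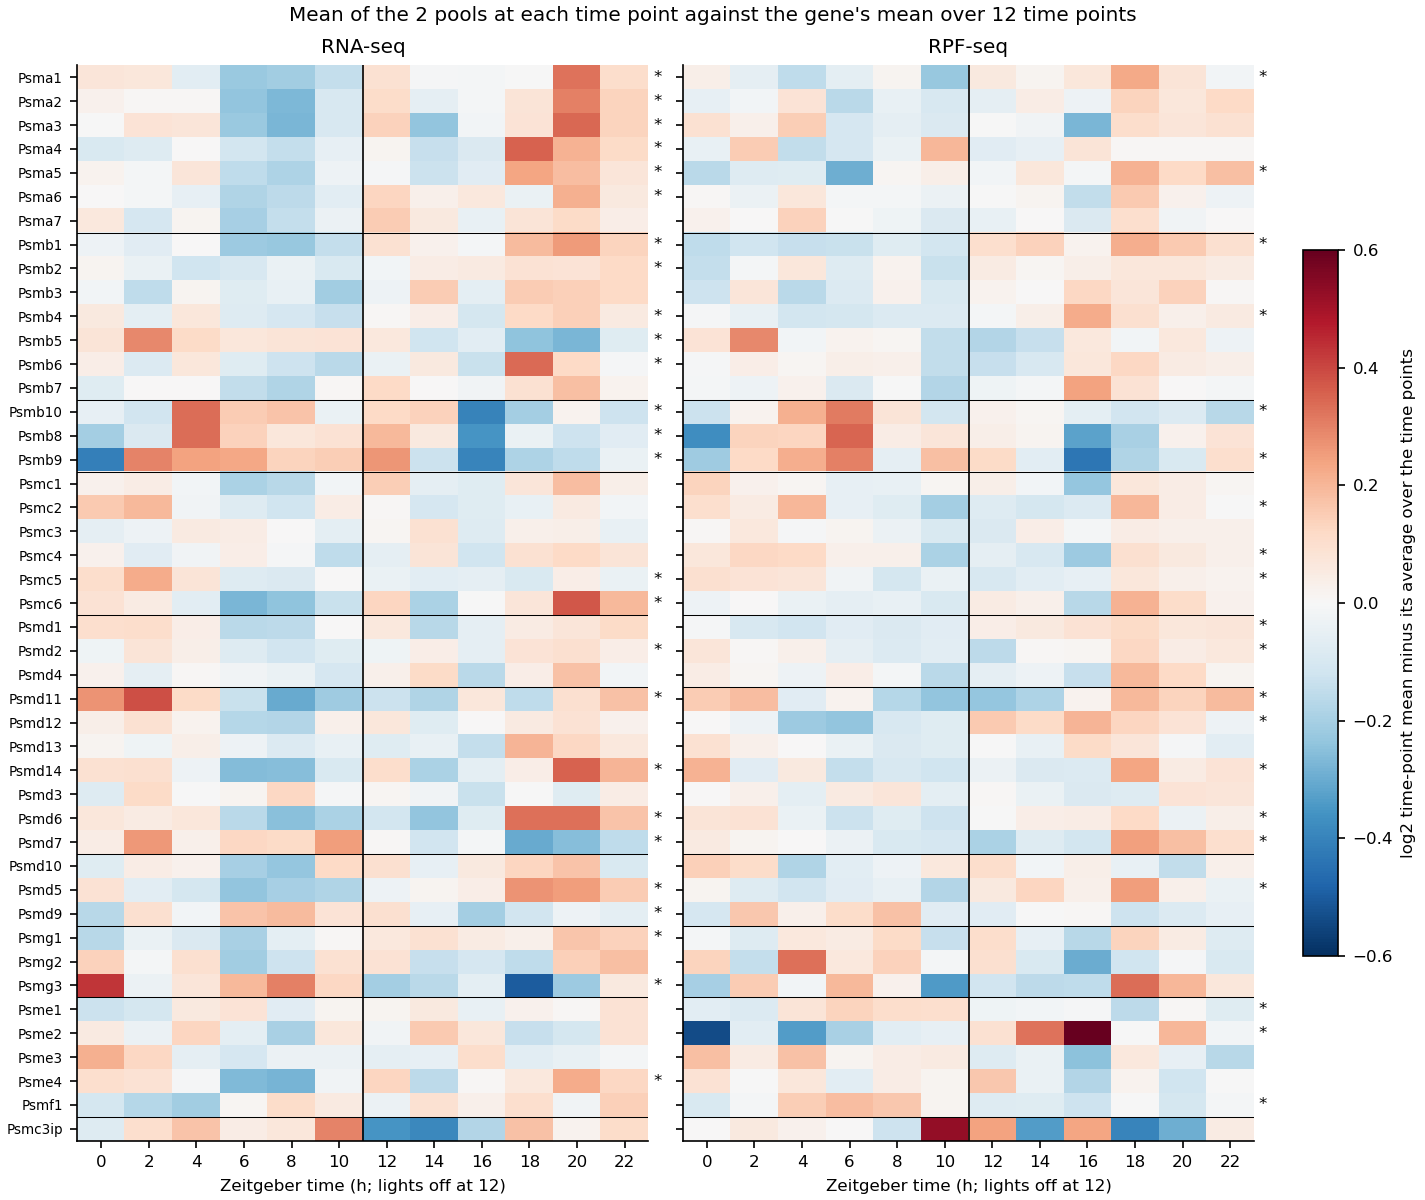
Log2 of the mean of the 2 pools at each timepoint minus its average over the timepoints, for each gene, in RNA-seq (left) and RPF-seq (right), ordered by role. An asterisk marks a 24-h component (26 genes in RNA-seq, 20 in RPF-seq), horizontal lines separate the roles and the vertical line is lights off. Most core subunits were low at ZT06 and ZT08 and high at ZT18 and ZT20 in RNA-seq.

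Most of the core peaked late in the night. A 24-h component was found for 11 of its 14 subunits, 6 of 7 in the alpha ring and 5 of 7 in the beta ring, and 10 of these 11 peaked between ZT18.5 and ZT20.9. The folds of the 14 ran from 1.13 to 1.28. Fitted to replicate 1 alone, Psma1, Psma2, Psma3 and Psma6 had folds of 1.41, 1.37, 1.43 and 1.29. In replicate 2 alone these were 1.11, 1.16, 1.12 and 1.07. Among the other core calls, replicate 1 had the larger fold for Psmb1, Psmb2, Psmb4 and Psmb5, and replicate 2 for Psma4, Psma5 and Psmb6. The median subunit was 0.16 below its own mean on the log2 scale at both ZT06 and ZT08 and 0.19 above it at ZT20. Psmb1 had the smallest adjusted p of the core. Its RNA level was 189 and 188 RPKM in the pools of ZT08 and 257 and 268 RPKM at ZT20 (fold 1.27, log2 0.34 ± 0.06 SE, peak at ZT19.1, adjusted p = 1.45e-04). Among the catalytic subunits, Psmb6 followed the group (fold 1.17, log2 0.22 ± 0.07 SE, peak at ZT19.9, adjusted p = 0.0388), and this call was lost with a 12-h term added, with quantile normalisation and with the depth covariate. Psmb7 had a similar curve that missed the threshold (fold 1.13, log2 0.18 ± 0.06 SE, peak at ZT18.1, adjusted p = 0.0558). Psmb5 (GRCm38 chr14:54614119-54618022) peaked in the light phase. Its RNA was highest at ZT02, 115 and 114 RPKM, and at ZT18 and ZT20 fell to 79.2 and 79.3 and to 77.6 and 77.6 RPKM, below every other pool (fold 1.28, log2 0.35 ± 0.07 SE, peak at ZT5.4, adjusted p = 0.00109).

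In the regulatory particle 7 of 16 subunits (43.75%) had a 24-h component in RNA-seq, against 78.6% of the core and 48.6% of all genes. The folds of all 16 lay between 1.02 and 1.40. Psmd11, Psmd6 and Psmc6 were named by the size of their curves. Psmd11 RNA ranged from 36.8 to 63.7 RPKM (median 47.9). It was highest around lights on, with 59.5 and 63.7 RPKM at ZT02, and lowest at ZT08 with 39.6 and 36.8 RPKM (fold 1.40, log2 0.49 ± 0.09 SE, peak at ZT23.5, adjusted p = 2.21e-04). Psmd6 RNA ranged from 91.0 to 144 RPKM (median 110.1), and the pools of ZT18 (141 and 142 RPKM) and ZT20 (139 and 144 RPKM) lay above all others (fold 1.39, log2 0.48 ± 0.07 SE, peak at ZT21.4, adjusted p = 3.63e-05). Psmc6 RNA rose from 87.5 and 90.3 RPKM at ZT06 to 142 and 137 RPKM at ZT20 (fold 1.33, log2 0.41 ± 0.09 SE, peak at ZT20.5, adjusted p = 0.00135). The call of Psmc6 rested on replicate 1, since the curve was log2 0.24 and not called without it and log2 0.58 without replicate 2. Its pools at ZT12 were far apart, 98.95 and 136 RPKM. Psmd14, the deubiquitinase, had a curve of its own in the night (fold 1.30, log2 0.38 ± 0.08 SE, peak at ZT21.0, adjusted p = 0.00243). Its curve was 1.425-fold in replicate 1 alone and 1.194-fold in replicate 2 alone. A light-phase peak was found for Psmc5 (ZT1.3) and Psmd7 (GRCm38 chr8:107580381-107588464). Psmd7 RNA stood at 60.7 and 63.9 RPKM at ZT10, at 46.0 and 38.9 RPKM at ZT18 and at 43.9 and 43.9 RPKM at ZT20 (fold 1.31, log2 0.39 ± 0.10 SE, peak at ZT6.4, adjusted p = 0.00741), and the pools of ZT12 disagreed (40.4 and 64.9 RPKM).

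The smallest adjusted p of the 45 genes in RNA-seq belonged to an assembly chaperone. Psmd5 (GRCm38 chr2:34849734-34874968) RNA was 41.8 and 40.4 RPKM at ZT06, 56.3 and 60.7 RPKM at ZT18 and 57.2 and 58.02 RPKM at ZT20, and these 4 pools of the late night exceeded every other pool (fold 1.36, log2 0.44 ± 0.04 SE, peak at ZT19.4, adjusted p = 1.53e-07). Psmg3, a core assembly chaperone, peaked in the light phase. It stood at 15.96 and 16.3 RPKM at ZT00 and 9.20 and 7.78 RPKM at ZT18 (fold 1.38, log2 0.47 ± 0.14 SE, peak at ZT4.7, adjusted p = 0.0244), a call lost with the depth covariate and with the timepoints as separate levels. Gm26938 overlaps Psmg3 on the same strand in the annotation, so the reads of both may not be separable.

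The immunoproteasome subunits ran opposite to the core, with light-phase peaks for all 3 in RNA-seq. Psmb9 RNA ranged from 4.63 to 9.99 RPKM (median 8.02). It was 8.68 and 8.77 RPKM at ZT06 and 5.52 and 5.77 RPKM at ZT16 (fold 1.44, log2 0.53 ± 0.14 SE, peak at ZT6.8, adjusted p = 0.0119), and pools of the light and dark phases overlapped, since ZT00 (6.55 and 4.63 RPKM) held the lowest value. Psmb8 was 19.98 and 17.01 RPKM at ZT04 and 10.3 and 12.7 RPKM at ZT16 (fold 1.26, log2 0.34 ± 0.11 SE, peak at ZT7.7, adjusted p = 0.0431). Psmb10 was 23.9 and 16.3 RPKM at ZT04 and 10.7 and 13.4 RPKM at ZT16 (fold 1.27, log2 0.35 ± 0.11 SE, peak at ZT6.6, adjusted p = 0.0360). The curves of Psmb8 and Psmb10 lost their call with the depth covariate or with quantile normalisation, that of Psmb8 also without the pool of ZT04 replicate 2, and all 3 lost it with a 12-h term added and without either replicate. Without replicate 1 the curve of Psmb10 was log2 0.22. The 7 immune cell markers summed to between 373 and 587 RPKM in the light phase and between 358 and 627 RPKM in the dark phase. Those with a 24-h component, Ptprc and Adgre1, peaked at ZT22.1 and ZT19.6. The base chaperone Psmd9 also peaked in the light phase (fold 1.21, log2 0.28 ± 0.07 SE, peak at ZT7.4, adjusted p = 0.00850).

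**Figure D4:**
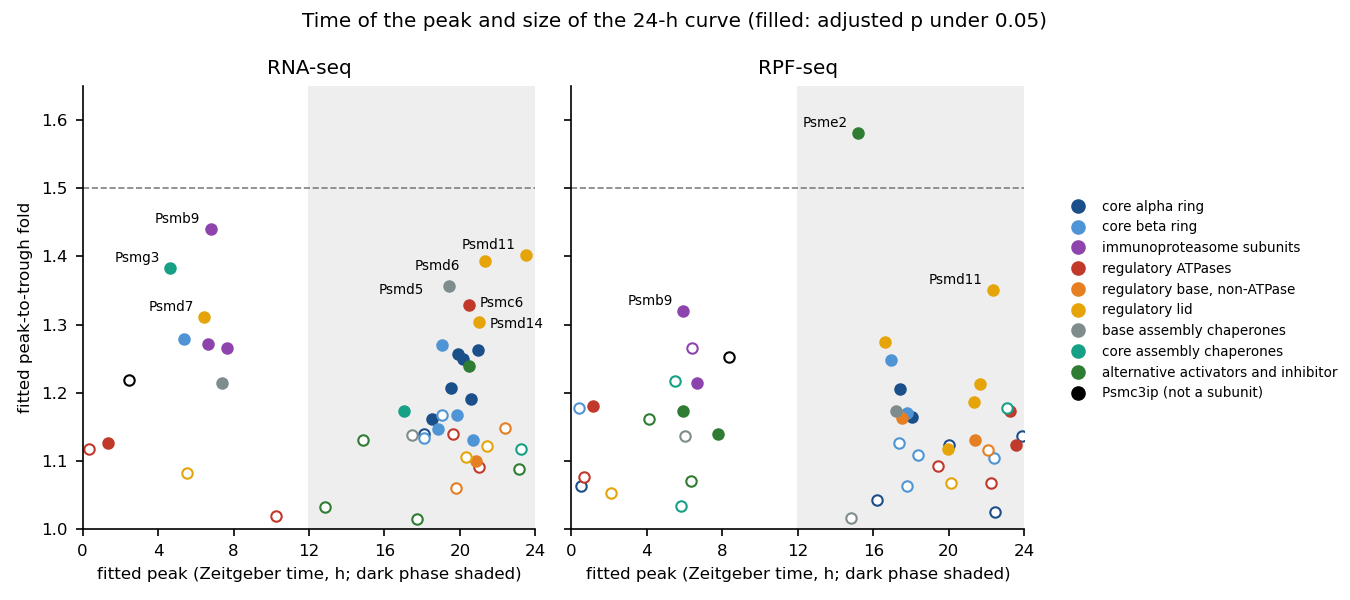
Fitted peak time and peak-to-trough fold of each of the 45 genes in RNA-seq (left) and RPF-seq (right). Filled circles have an adjusted p under 0.05, the dashed line is the 1.5-fold size and colours mark the role. The filled circles of the core gather between ZT18.5 and ZT20.9 in RNA-seq, with the exception of Psmb5 at ZT5.4.

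The third question was whether footprints followed. In RPF-seq 20 of the 45 genes (44.4%) had a 24-h component, against 30.9% of all genes, and 1, Psme2, also reached 1.5-fold, against 7.58% of all genes. The median fold was 1.14 among the 45 and 1.18 among all genes. Dark-phase peaks were found for 15 (13.6% of all genes) and light-phase peaks for 5 (17.3% of all genes). Both assays had a 24-h component for 13 genes, RNA-seq alone for 13, RPF-seq alone for 7 and neither for 12. The same split over all genes is not given here, so it is no result about the 45 genes. A threshold missed in 1 assay does not show that the assays differ. For 11 of the 13 genes called in both assays the RPF peak came earlier than the RNA peak, by a median of 1.8 h over the 13. These 11 include Psmb10, with a difference of only -0.002 h. The share over all genes called in both assays is not given here, so this order was not shown to be particular to the 45 genes. The difference of 1 gene, Psmd7, was over 4 h (-8.79 h). Without replicate 1 the count was 2 (4.44%), Psmd11 and Psmd12, against 3.88% of all genes, and without replicate 2 it was 6 (13.3%) against 17.5%. With the timepoints as separate levels it was 5 (11.1%) against 12.8%, so the excess over all genes was not seen under the last pair of settings. With the depth covariate 19 (42.2%) were called against 28.7%.

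In contrast to RNA-seq, the regulatory particle had more calls in RPF-seq than the core. They were 10 of 16 subunits (62.5%) against 4 of 14 (28.6%), beside 30.9% of all genes. The typical size of the curves was nearly the same, with a median fold of 1.127 in the regulatory particle and 1.125 in the core. The difference between the particles was not tested. The core calls were Psma1, Psma5, Psmb1 and Psmb4, which peaked between ZT16.9 and ZT18.1. Psmb1 footprints ranged from 334 to 465 RPKM (median 383), and all 12 pools from ZT12 to ZT22 lay above all 12 pools from ZT00 to ZT10 (fold 1.25, log2 0.32 ± 0.05 SE, peak at ZT16.9, adjusted p = 2.88e-04). Psmd12 footprints were 107 and 95.95 RPKM at ZT06 and 132 and 143 RPKM at ZT16 (fold 1.27, log2 0.35 ± 0.05 SE, peak at ZT16.6, adjusted p = 6.61e-05). Its RNA curve was shallower (fold 1.11, log2 0.14 ± 0.06 SE, peak at ZT20.3, adjusted p = 0.135). Psmd11 footprints had the smallest adjusted p of the 45 genes in RPF-seq. They were 41.2 and 38.5 RPKM at ZT12 and 54.8 and 52.02 RPKM at ZT22, and the pools from ZT10 to ZT14 all lay below those from ZT18 to ZT02 (fold 1.35, log2 0.43 ± 0.06 SE, peak at ZT22.4, adjusted p = 1.31e-05).

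Among the catalytic pairs the daytime peak of the immunoproteasome subunits was present in footprints as well. Psmb9 was 13.2 and 13.3 RPKM at ZT06 and 8.01 and 7.87 RPKM at ZT16 in RPF-seq (fold 1.32, log2 0.40 ± 0.12 SE, peak at ZT5.9, adjusted p = 0.0361), but the call was lost without the pool of ZT04 replicate 2, with quantile normalisation, with a 12-h term, with separate levels and without either replicate (log2 0.27 without replicate 1). Psmb10 was 28.6 and 28.5 RPKM at ZT06, above every other pool, and 19.9 and 21.1 RPKM at ZT22 (fold 1.21, log2 0.28 ± 0.07 SE, peak at ZT6.6, adjusted p = 0.0174). Psmb8 had a curve of like size that missed the threshold (fold 1.27, log2 0.34 ± 0.12 SE, peak at ZT6.4, adjusted p = 0.0722). None of the constitutive subunits passed. Their values were 1.18-fold for Psmb5 (adjusted p = 0.0980), 1.10-fold for Psmb6 (adjusted p = 0.122) and 1.11-fold for Psmb7 (adjusted p = 0.239).

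Psme2 (GRCm38 chr14:55587441-55591113), the beta subunit of the PA28 cap, had the largest footprint curve. Its RPF level ranged from 12.3 to 44.7 RPKM (median 22.7) and was 12.6 and 18.5 RPKM at ZT00, 27.8 and 28.9 RPKM at ZT14 and 25.9 and 44.7 RPKM at ZT16 (fold 1.58, log2 0.66 ± 0.17 SE, peak at ZT15.2, adjusted p = 0.0163). The replicates were far apart at ZT16 and at ZT04 (23.5 and 12.3 RPKM). Its RNA had no call (fold 1.01, log2 0.02 ± 0.09 SE, peak at ZT17.8, adjusted p = 0.976), and the TE curve of 1.56-fold missed the threshold (adjusted p = 0.0553). Without the pool of ZT04 replicate 2 the RPF curve kept its adjusted p under 0.05 but fell under 1.5-fold (log2 0.56). It lost its call with a 12-h term added, with the timepoints as separate levels and without replicate 1, where the fold was 1.95. Psme1, the partner subunit, peaked at another time (fold 1.14, log2 0.19 ± 0.05 SE, peak at ZT7.8, adjusted p = 0.0137). Reads of Psme2 may be shared with its close copy Psme2b.

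**Figure D5:**
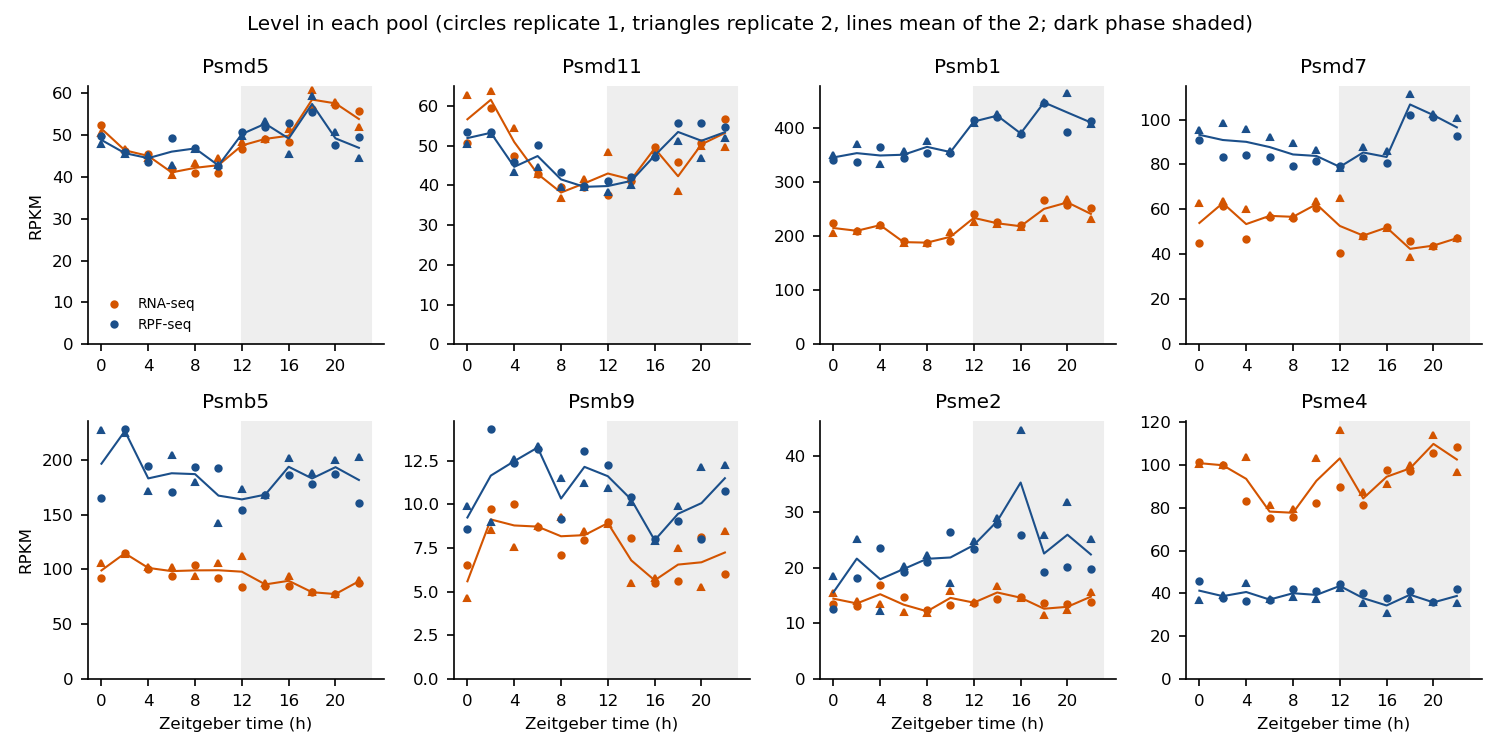
RPKM of 8 genes in each pool by Zeitgeber time, RNA-seq in orange and RPF-seq in blue, with circles for replicate 1, triangles for replicate 2 and lines for the mean of both. Psmd5, Psmd11 and Psmb1 had a 24-h component in both assays, whereas RNA and RPF of Psmd7 went in opposite directions at ZT18 and ZT20 and Psme2 had a call in RPF-seq alone.

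The fourth question was whether TE itself varied over the day, that is, whether the curves of the assays differed. A 24-h component in TE was found for 8 of the 45 genes (17.8%), a share near the 17.1% of all genes, and 1 of them, Psmd7, reached 1.5-fold, against 3.74% of all genes. All 8 calls were lost with library depth as a covariate, where 587 of all genes were called in place of 2028, and library depth moved with the time of day as given above. The median fold over the 45 genes, most of them without a call, was 1.16 with that covariate and 1.14 without it. A fitted fold cannot fall below 1, so this median does not bear on the 8 calls. An unadjusted p under 0.05 in limma was found for 12 genes in place of 15. The part of depth in the TE curves was not tested. With the timepoints as separate levels 0 of the 45 and 0.851% of all genes were called, and without replicate 1 or replicate 2 no more than 2 of all genes were, so that these settings do not bear on single calls. Without the pool of ZT04 replicate 2, 5 of the 45 genes (11.1%) were called against 15.45% of all genes.

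Psmd7 had the largest TE curve. Its TE was 1.34 and 1.35 at ZT10, 2.22 and 2.86 at ZT18 and 2.31 and 2.34 at ZT20, and these 4 pools of the night lay above all others (fold 1.53, log2 0.61 ± 0.13 SE, peak at ZT19.8, adjusted p = 0.00720). The pools at ZT12 differed (1.96 and 1.21). RNA was low in those 4 pools while footprints were at their highest, 102 and 111 RPKM at ZT18 and 101 and 103 RPKM at ZT20 (fold 1.21, log2 0.28 ± 0.06 SE, peak at ZT21.6, adjusted p = 0.00428). Fitted to each replicate alone the TE curve was 1.45-fold with a peak at ZT19.7 and 1.61-fold with a peak at ZT19.8, and with the depth covariate its log2 size was 0.54 in place of 0.61.

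Psmb5 shared this timing. Its TE was highest at ZT20, 2.41 and 2.57 against 1.84 and 1.55 at ZT12 (fold 1.29, log2 0.37 ± 0.10 SE, peak at ZT19.9, adjusted p = 0.0275). Without replicate 1 its TE curve was log2 0.58, without replicate 2 0.23 and with the depth covariate 0.25. In the opposite phase, Psmd6 had its lowest TE at ZT20, 0.991 and 0.900 against 1.54 and 1.41 at ZT14 (fold 1.26, log2 0.33 ± 0.09 SE, peak at ZT10.0, adjusted p = 0.0327), and ZT20 was among the timepoints of its highest RNA. Psme4 was alike, with a TE of 0.553 and 0.481 at ZT08 and 0.339 and 0.314 at ZT20 (fold 1.32, log2 0.40 ± 0.10 SE, peak at ZT8.0, adjusted p = 0.0221), an RNA curve (fold 1.24, log2 0.31 ± 0.08 SE, peak at ZT20.5, adjusted p = 0.0115) and footprints without a call (fold 1.07, log2 0.10 ± 0.08 SE, peak at ZT6.4, adjusted p = 0.558). Psmf1 had its highest TE at ZT04, 2.01 and 2.83, where replicate 2 is the library with many genes at 0, and it was 1.66 and 1.68 at ZT14 (fold 1.30, log2 0.37 ± 0.10 SE, peak at ZT4.6, adjusted p = 0.0323). Psmd12 had 1.61 and 1.28 at ZT04 and 1.89 and 1.94 at ZT14 (fold 1.23, log2 0.29 ± 0.08 SE, peak at ZT15.0, adjusted p = 0.0282). Without that pool the calls of Psmf1 and Psmd12 were lost. The remaining curves, of Psmd5 and Psmc4, were 1.21-fold and 1.16-fold.

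Genes that work with the proteasome were examined as a list of 26, of which 25 were measured. A 24-h component was found for 17 of the 25 in RNA-seq, 13 with a dark-phase peak, for 9 in RPF-seq and for 7 in TE, with a median RNA fold of 1.26. These are 68.0%, 36.0% and 28.0% of the list, against 48.6%, 30.9% and 17.1% of all genes. Pomp and Adrm1 are given for their place in the complex and were chosen after their values were seen. Pomp, the chaperone that completes core assembly, had 128 ± 13.8 RPKM in RNA-seq (fold 1.26, log2 0.33 ± 0.06 SE, peak at ZT19.1, adjusted p = 4.70e-04). Its footprints had no call in limma (fold 1.09, adjusted p = 0.466), and its TE peaked in the day (fold 1.32, peak at ZT6.1, adjusted p = 0.0124). Adrm1, the ubiquitin receptor of the base, had 77.8 ± 12.1 RPKM in RNA-seq (fold 1.32, log2 0.40 ± 0.10 SE, peak at ZT17.4, adjusted p = 0.00459). Its footprints were called as well (fold 1.24, peak at ZT18.2, adjusted p = 0.00246), and its TE was not (adjusted p = 0.682). Nfe2l1 had 57.7 ± 5.16 RPKM in RNA-seq and 37.2 ± 2.53 RPKM in RPF-seq. Its RNA was highest at ZT10 (59.7 and 68.6 RPKM) and lowest at ZT20 (48.4 and 46.3 RPKM), a curve opposite in time to most of the core (fold 1.18, log2 0.24 ± 0.06 SE, peak at ZT8.3, adjusted p = 0.0103), and its footprints had no call (fold 1.10, log2 0.14 ± 0.06 SE, peak at ZT1.6, adjusted p = 0.147). The TE of Nfe2l1 was called in limma (fold 1.23, log2 0.29 ± 0.08 SE, peak at ZT22.1, adjusted p = 0.0349). Alternatives for the TE curves of Pomp and Nfe2l1 are not given here. Of the 25 genes, 1 reached 1.5-fold with a call in any assay. This was Akirin2, which mediates the import of proteasomes into the nucleus, with RNA highest at ZT18 (48.6 and 56.5 RPKM) and lowest at ZT08 (37.3 and 32.1 RPKM; fold 1.38, log2 0.47 ± 0.08 SE, peak at ZT18.6, adjusted p = 1.57e-04), no call in RPF-seq (fold 1.10, log2 0.14 ± 0.10 SE, peak at ZT7.8, adjusted p = 0.474) and a TE curve in the opposite phase (fold 1.52, log2 0.60 ± 0.10 SE, peak at ZT6.9, adjusted p = 0.00147).

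Complexes of other functions were set beside the proteasome. In the cytosolic chaperonin, which folds actin and tubulin, 6 of 8 subunits had a 24-h component in RNA-seq, all with dark-phase peaks, and the median fold was 1.20. In RPF-seq 6 of 8 passed as well, and the shares of all genes are those given above. In the COP9 signalosome 7 of 9 passed in RNA-seq, 4 with dark-phase and 3 with light-phase peaks and a median fold of 1.26, and 1 in RPF-seq. No difference between these complexes and the proteasome was tested.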

How the data were processed

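RNA-seq and RPF-seq were available for 24 kidney pools (48 libraries). The deposited values are RPKM on the coding sequence. For these the authors trimmed and size-filtered reads, aligned them with Bowtie 2 (2.2.1) and TopHat 2 (2.0.11) to GRCm38, scaled libraries by the upper quantile in edgeR and left out genes of low RPKM. The counting strand is not given in the sources used here. Effective depth was estimated from the whole-read steps of the 300 lowest genes (9.83 to 34.9 M reads). Gene coordinates are those of GENCODE on GRCm38, and promoters those of RefSeq on GRCm38.p6.

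Genes with a median of at least 0.5 RPKM in both assays (11863) were tested on log2(RPKM + 0.1), a scale that understates changes of low genes. A 24-h cosine and sine were fitted to the 24 pools per assay in limma 3.58.1 (R 4.3.3), with the moderated F test, a mean-variance trend and Benjamini-Hochberg adjustment over all genes. Folds are fitted peak to trough, except with the timepoints as separate levels, where they compare the highest and lowest timepoint means. TE was log2 RPF minus log2 RNA of the same pool, and its level was the limma intercept after centring on the median gene. Spread was summarised with Python 3.11.15, numpy 2.4.6 and pandas 2.3.3, and figures were drawn with matplotlib 3.10.9. In simulated data of 11863 genes a small part was given curves and the rest were flat. Of the 1.25-fold curves the procedure recovered 50% in RNA, 34% in RPF and 20% in TE, and of the 2-fold curves 96%, 94% and 89%. Far more genes were called in the real data, which makes the adjustment less strict there, so these shares do not give its power.

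Every gene is named with its levels. Pool values and statistics are given for up to 6 genes per assay and for TE with the largest fold among those called, for the 3 highest and 3 lowest TE, for the catalytic subunits and their immunoproteasome counterparts, and for Nfe2l1 and partners called at 1.5-fold. Other genes with statistics were chosen after their values were seen. The members and lists were chosen with earlier results of these data known. Alternatives changed the pseudocount, filter, model, normalisation, depth covariate and libraries.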

Additional observations from a re-analysis of the deposited data

Results flagged for a closer look

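For 8 of the 45 genes the 24-h curve differed between RPF-seq and RNA-seq of the same pools, by the limma test of the curve in TE. This share, 17.8%, is near the 17.1% of all genes. The fitted peak-to-trough fold of TE was 1.53 for Psmd7, 1.32 for Psme4, 1.30 for Psmf1, 1.29 for Psmb5, 1.26 for Psmd6, 1.23 for Psmd12, 1.21 for Psmd5 and 1.16 for Psmc4. TE peaked in the night for Psmd7 (ZT19.8) and Psmb5 (ZT19.9), and in the day for Psme4 (ZT8.0) and Psmd5 (ZT9.2). With library depth as a covariate 0 of the 8 were called. The log2 size for Psmd7 was then 0.54 in place of 0.61, and the curve of Psmb5 fell by more, as given above. The median TE fold of the 45 genes, 1.16 in place of 1.14, does not bear on these 8. The part of depth in these curves was not tested further.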

How the results depend on the processing

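Of the single-gene values, 384 kept their side of the threshold under an alternative, 71 fell below it and 9 rose above it. Each pseudocount, each filter and the replicate block kept all 38 values, so the total leans on settings that changed little. With the timepoints as separate levels 19 were kept and 13 fell below, and with the depth covariate 21 were kept and 10 fell below. The 26 RNA-seq calls became 17 with a 12-h term and 13 with the timepoints as separate levels, and 2 to 20 with a replicate left out (27 without ZT04 replicate 2). The 20 RPF-seq calls became 32 with selection by AIC, 5 with separate levels and 2 to 6 with a replicate left out (19 without ZT04 replicate 2). The 8 TE calls became 23 with AIC, 4 with a 12-h term, 5 without ZT04 replicate 2 and 0 with separate levels, with the depth covariate or with either replicate left out (5, 12, 7 and 14 at an unadjusted p under 0.05 in limma). At least 1.5-fold with a call were 0 genes in RNA-seq, but 1 with a 12-h term, 5 with separate levels and 1 with the depth covariate. With separate levels the fold compares the highest and lowest timepoint means, and its median over all genes was 1.43 in place of 1.21. Of all genes, those at least 1.5-fold with a call were 1210 in the main fit and 1752, 2291 and 1249 under these settings. In RPF-seq the 1 such gene became 0 with a 12-h term, with separate levels, without ZT04 replicate 2 and without replicate 1. Leaving out a replicate leaves 1 pool per timepoint, which lowers the number of samples. For the other settings the cause was not tested.

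Over the 30 subunits the interquartile range was 0.83 (log2) in RNA-seq and 1.00 in RPF-seq. With every Psma and Psmb gene against every Psmc and Psmd gene, a choice made after seeing the data, the SD was 1.12 and 1.18 and the core minus regulatory difference 0.29 and 0.57. The narrower sets of 14 and 16 subunits were also chosen with earlier results of these data known. With a replicate block RNA-seq had 28 calls, RPF-seq 20 and TE 8. Replicate numbers were not taken to pair the timepoints, as deviations of pools with the same number were correlated by 0.029 on average in RNA-seq and 0.020 in RPF-seq. For Psmc3ip, with a median of 53 RNA-seq reads, depth limits the precision, and a missed threshold does not show a flat curve.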
